A study of Mus musculus with 14 samples.

Results

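The small leucine-rich proteoglycans are secreted matrix proteins, and 9 of their genes (Dcn, Bgn, Lum, Fmod, Omd, Ogn, Kera, Prelp and Aspn) are described here across sorted bone marrow stromal cells. They were chosen by name: every probe set whose platform gene symbol was exactly 1 of the 9 was taken, which gave 20 probe sets for 9 of the 18193 gene symbols on the array. RNA of sorted cells was measured on 14 Affymetrix mouse arrays, 1 per sample, in 4 groups. GFP+ osteoblasts of G-CSF-treated mice and of untreated mice had 3 arrays each, and CD31+ endothelial cells of G-CSF-treated mice and of untreated mice had 4 arrays each. All mice were C57BL/6J animals of 6 to 8 weeks that carried the pOBcol2.3-GFP transgene, in which a fragment of the type I collagen promoter drives GFP, although the genotype label reads wild type. The osteoblast gate was CD45- ter119- CD31- GFP+ and the endothelial gate was CD45- ter119- GFP- CD31+. G-CSF, the cytokine that expands neutrophils and mobilises blood stem cells, was injected under the skin at 250 ug per kg, for 5 days by the titles and treatment text of the G-CSF arrays. The treatment text of the untreated arrays names 7 days, with vehicle alone as the control. The labels do not say that replicates were separate mice, so p-values measure only the spread between these samples, and precision is limited by how few arrays each group has.

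Small leucine-rich proteoglycans have a core of leucine-rich repeats that binds collagen fibrils and sets how the fibrils grow and pack. Decorin (Dcn) and biglycan (Bgn) carry chondroitin or dermatan sulfate chains, whereas lumican (Lum), fibromodulin (Fmod), keratocan (Kera) and osteomodulin (Omd) can carry keratan sulfate. Several of them also bind growth factors, among them TGF-beta, and in bone they belong to the osteoid, the matrix that osteoblasts lay down before it mineralises. In the mouse the genes lie in clusters. RefSeq places Dcn, Lum and Kera side by side on chromosome 10, Aspn, Omd and Ogn on chromosome 13, and Prelp and Fmod on chromosome 1, with 0 other protein-coding genes between the members of a cluster, and Bgn on chromosome X.

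Values are scaled intensities of the probe set with the highest mean for its gene, given in replicate order within each group, and changes are differences of log2(intensity + 16), a scale that understates the change of dim genes. Levels of different genes cannot be set against each other, because each probe set has its own brightness. A gene was called when limma's adjusted p, taken over all 13453 genes tested, was under 0.05. Errors are SD for group means and SE for changes. In sorted bulk samples, fewer cells of a type and less RNA per cell cannot be told apart.

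The sorts were checked against marker genes. All 8 endothelial markers (Pecam1, Cdh5, Kdr, Tek, Emcn, Vwf, Erg and Tie1) were lower in the GFP+ arrays, treated or not, and their mean level ran from 8.12 to 9.01 on the log2 scale in GFP+ arrays, against 12.01 to 12.59 in CD31+ arrays. The osteoblast list was named on the array for 5 of 8 genes (Sp7, Alpl, Ibsp, Col1a1 and Dmp1). Its mean level ran from 12.6 to 14.5 in GFP+ arrays, but it was not absent from CD31+ arrays, where it ran from 9.01 to 13.1. Only 1 of the 5 was called higher in GFP+ than in CD31+ cells of untreated mice, against 13.6% of all genes tested. After G-CSF all 5 were, against 17.5% of all genes tested. Untreated Col1a1 differed by 0.23 between the sorts (adjusted p = 0.814, limma). The 8 fibroblast and tendon markers (Scx, Tnmd, Mkx, Thbs4, Postn, Pi16, Dpt and Fbln1) were also higher in the GFP+ sort by their mean, though not each of them. Their mean level ran from 9.68 to 10.7 in GFP+ arrays and from 6.69 to 8.09 in CD31+ arrays. Of the 8, 5 were called higher in GFP+ cells of untreated mice and 6 after G-CSF. Pi16 did not follow, with 1133.9, 361.5 and 406.8 in G-CSF GFP+ arrays, against 1365.1, 599.1, 1082.3 and 714.2 in G-CSF CD31+ arrays. Nor did untreated Dpt, with 615.6, 791.5 and 411.3 in GFP+ arrays, against 978.9, 515.6, 681.6 and 758.9 in CD31+ arrays. Which cells of the GFP+ sort carried the proteoglycan RNA was not tested. Neutrophil markers were bright in every group despite the CD45- gate. They were highest in untreated GFP+ replicate 2, at a mean of 15.01, against 11.95 and 11.55 in the other untreated GFP+ arrays and 13.74 to 14.36 in G-CSF GFP+ arrays. Skeletal muscle markers stood out in untreated CD31+ replicate 1, at 13.7, where no other array passed 9.97. CD31+ replicate 2 had the lowest osteoblast markers of its group in both conditions, at 9.01 after G-CSF and 11.3 untreated. Actin signal at the 3 prime end exceeded that at the 5 prime end, a ratio that grows as RNA degrades, by 2.62 to 11.03 times over the 14 arrays.

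**Figure D1:**
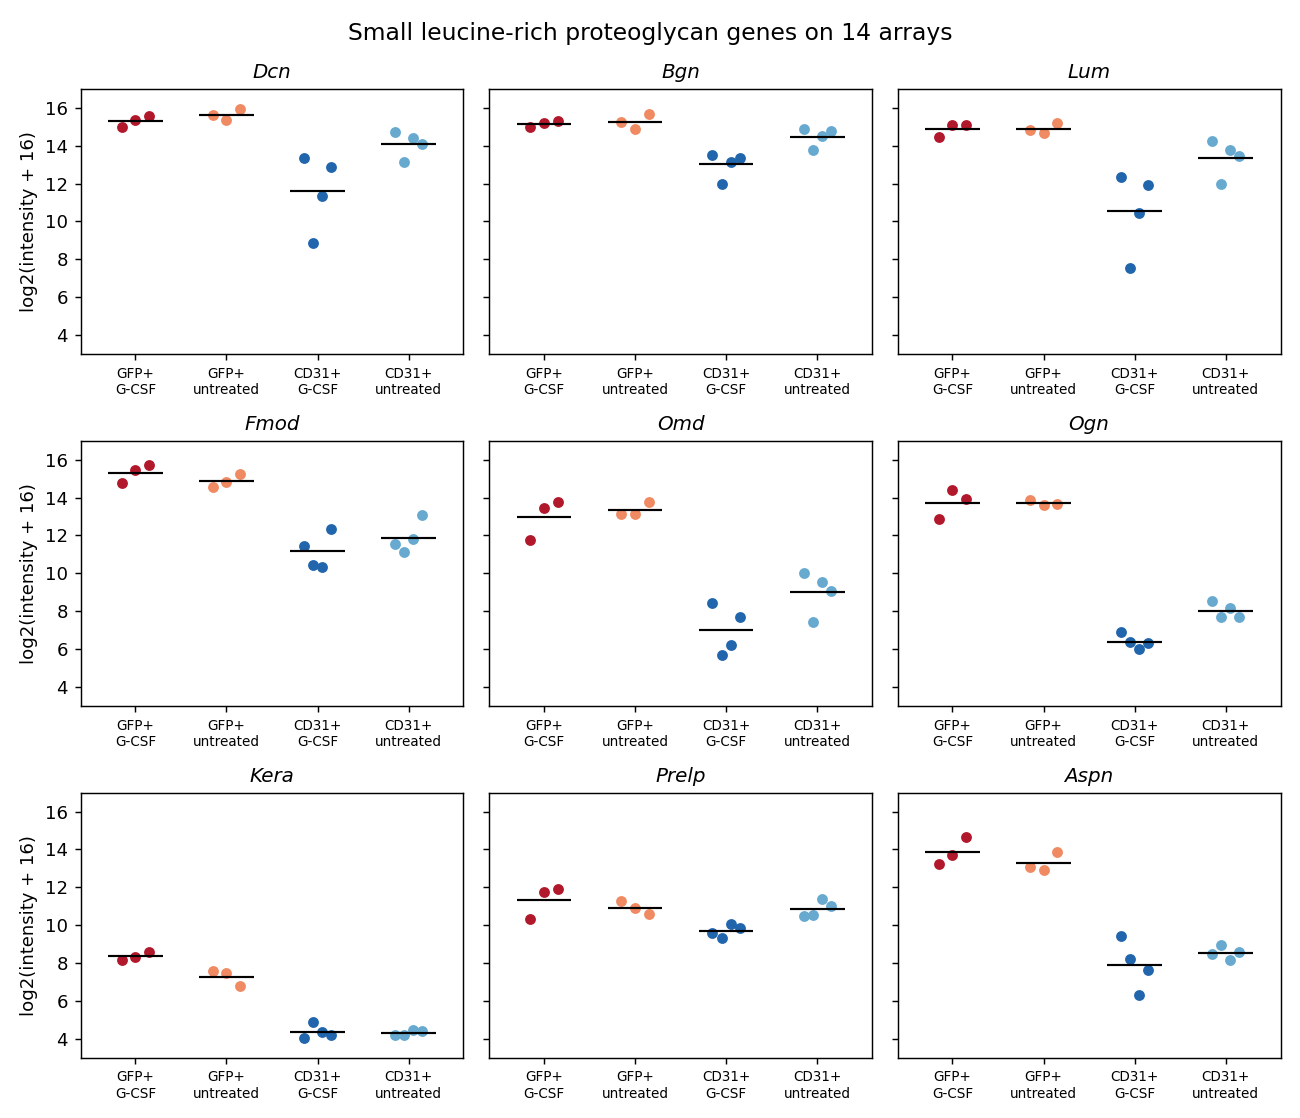
Level of the 9 genes on each of the 14 arrays, as log2(intensity + 16) on the vertical axis, with 1 panel per gene. Points are arrays in replicate order (3 per GFP+ group and 4 per CD31+ group) and bars are group means. The GFP+ arrays lie above the CD31+ arrays for every gene but Prelp, whose untreated GFP+ and untreated CD31+ arrays overlap.

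The untreated sorts were compared first. Because osteoblast markers were also found in CD31+ arrays, the cells behind a proteoglycan signal there cannot be told apart. Of the 9 genes, 5 were higher in GFP+ osteoblasts than in CD31+ cells and 0 were lower, where 13.6% of all genes tested were called higher and 12.8% lower. The untreated GFP+ arrays lay above every untreated CD31+ array for 8 of the 9 genes, as they did for 16.7% of all genes tested. The median difference was 2.96 on the log2 scale for the 9 genes and 0.00 for all genes.

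The 3 neighbours on chromosome 13 showed the widest differences between the sorts. Osteoglycin (Ogn, also called mimecan), a small keratan sulfate proteoglycan first purified from bone, had intensities of 14871, 12269 and 13077 in untreated GFP+ arrays, against 354, 193.5, 267 and 188 in untreated CD31+ arrays. Every GFP+ array was far above every CD31+ array. The difference was 5.69 ± 0.32 on the log2 scale, or 51.7-fold (adjusted p = 2.66e-08, limma). Asporin (Aspn), which binds collagen at the site that decorin uses and can bind calcium through its aspartate run, had 8696, 7775 and 15122 in untreated GFP+ arrays, against 339.8, 484, 266 and 365 in untreated CD31+ arrays. The groups were apart by 4.76 ± 0.54, or 27.1-fold (adjusted p = 1.46e-05). Osteomodulin (Omd, also called osteoadherin), an acidic keratan sulfate proteoglycan that binds mineral and integrins, had 8827, 8925 and 14029 in untreated GFP+ arrays, against 1001, 155, 728 and 516 in untreated CD31+ arrays. The groups did not overlap, although the CD31+ arrays spanned 2.57 on the log2 scale, and the difference was 4.34 ± 0.68, or 20.2-fold (adjusted p = 0.000246).

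The promoters of these 3 neighbours are shown with that of Bgn, the gene with the second smallest difference, because they set an upstream region with a RUNX match beside one with repeated GC boxes. Each is the 150 bases before the RefSeq start of the gene on the plus strand of GRCm38.p6, from chr13:49607865-49608014 (Ogn), chr13:49544293-49544442 (Aspn), chr13:49582312-49582461 (Omd) and chrX:73483451-73483600 (Bgn). Capitals mark matches to the RUNX motif TGTGGT, the TATA box TATAAA or the GC box GGGCGG on either strand.
Ogn: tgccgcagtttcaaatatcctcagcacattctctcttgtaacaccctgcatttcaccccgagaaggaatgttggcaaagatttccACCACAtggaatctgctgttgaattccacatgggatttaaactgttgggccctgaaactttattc
Aspn: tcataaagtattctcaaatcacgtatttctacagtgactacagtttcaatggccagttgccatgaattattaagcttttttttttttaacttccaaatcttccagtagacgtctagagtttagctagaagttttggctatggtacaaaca
Omd: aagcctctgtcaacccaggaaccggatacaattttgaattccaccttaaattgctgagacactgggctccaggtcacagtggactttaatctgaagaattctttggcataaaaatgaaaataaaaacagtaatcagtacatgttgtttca
Bgn: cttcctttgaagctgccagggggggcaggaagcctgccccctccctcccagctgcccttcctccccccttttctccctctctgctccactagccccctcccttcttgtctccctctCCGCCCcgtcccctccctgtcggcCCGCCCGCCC
RefSeq listed promoters for 7 of the 9 genes, and Dcn and Lum had none in the table. In the 250 bases before the start, Ogn held the RUNX match on the minus strand at position -65, overlapping an E box (CANNTG) at -63. The RUNX motif was found in 14.05% of all 32851 promoter windows of that length, and 1 of the 7 windows held it. Bgn held GC boxes at -34, -10 and -6, of which the last 2 overlap, and was the only 1 of the 7 with a GC box, against 32.74% of all windows. TATA boxes lay farther upstream than the bases shown in Aspn (-207 and -178) and Ogn (-229 and -227), against 12.37% of windows. E boxes were in 4 of the 7 windows (Fmod, Aspn, Ogn and Bgn) and in 66.22% of all windows, CCAAT in 3 (Prelp, Kera and Aspn) and in 33.85%. The SMAD element GTCTAGAC (0.17% of windows) and the AP-1 motif TGANTCA (6.75%) had 0 matches among the 7. A match describes letters only and is not evidence of a bound site.

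Fibromodulin and keratocan, which belong to different clusters, were also called in the untreated sorts. Fmod, which collagen fibrils of tendon need in order to mature, had 24211, 29347 and 38449 in untreated GFP+ arrays, against 2955, 2206, 3553 and 8577 in untreated CD31+ arrays. The lowest GFP+ array was above the highest CD31+ array, replicate 4, and the difference was 3.00 ± 0.48, or 7.99-fold (adjusted p = 0.000313, limma). Kera, best known from the transparent stroma of the cornea, had 176.9, 159 and 94.1 in untreated GFP+ arrays, against 2.4, 2.5, 5.9 and 5.2 in untreated CD31+ arrays. All CD31+ arrays lay under 39.0, the level of the filter on dim probe sets. Kera passed that filter through its GFP+ arrays, with a mean of 5.84 over all arrays where 5.78 was required, so its place among the tested genes was not independent of the difference. With CD31+ values this low, the size of the difference is set by the constant added before the log, at 2.96 with 16 and 1.59 with 64, and is given as a description. It is also the median of the 9 differences. Without Kera, the count was 4 of 8.

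Decorin, lumican, biglycan and Prelp were bright in both untreated sorts and were not called. Dcn, the proteoglycan that coats type I collagen fibrils, had 50203, 41445.5 and 62859 in untreated GFP+ arrays, against 26717, 9061, 21797.5 and 17372 in untreated CD31+ arrays. Its neighbour Lum, which regulates fibril assembly in skin and cornea, had 29296, 25757 and 37435, against 19738, 4004, 14017 and 11402 in the same groups. Bgn, whose loss in mice lowers bone mass, had 38847, 30325 and 52779.7 in untreated GFP+ arrays, against 29990.4, 13749, 22939 and 28420.5 in untreated CD31+ arrays. All 3 genes were higher in every GFP+ array than in any CD31+ array. Their differences were 1.54 for Dcn (95% interval -0.06 to 3.15, adjusted p = 0.152), 1.52 for Lum (-0.27 to 3.31, adjusted p = 0.206) and 0.80 for Bgn (0.06 to 1.53, adjusted p = 0.106).

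Whether these 3 were called depended on the setting. Without G-CSF CD31+ replicate 2, which enters the shared estimate of spread, the untreated differences were the same but limma called all 3 (adjusted p = 0.0164 for Dcn, 0.034 for Lum and 0.0387 for Bgn), and the count of called members was 8. With only the 2 untreated groups fitted, Dcn (0.0123) and Lum (0.0443) were called. Dcn was also called with its probe sets averaged (1.80, 0.00556) and by its second, dimmer probe set (2.06 ± 0.42, 0.00212), and Bgn with a replicate block shared by both cell types (0.0264) and with array weights (0.0422). Prelp, a basement membrane protein that links perlecan to collagen, overlapped between the sorts. It had 2430.1, 1898 and 1519 in untreated GFP+ arrays, against 1415, 1486, 2632 and 2077.5 in untreated CD31+ arrays. Neither group lay above the other, and the difference was 0.06, with an interval from -0.68 to 0.79 (adjusted p = 0.933).

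**Figure D2:**
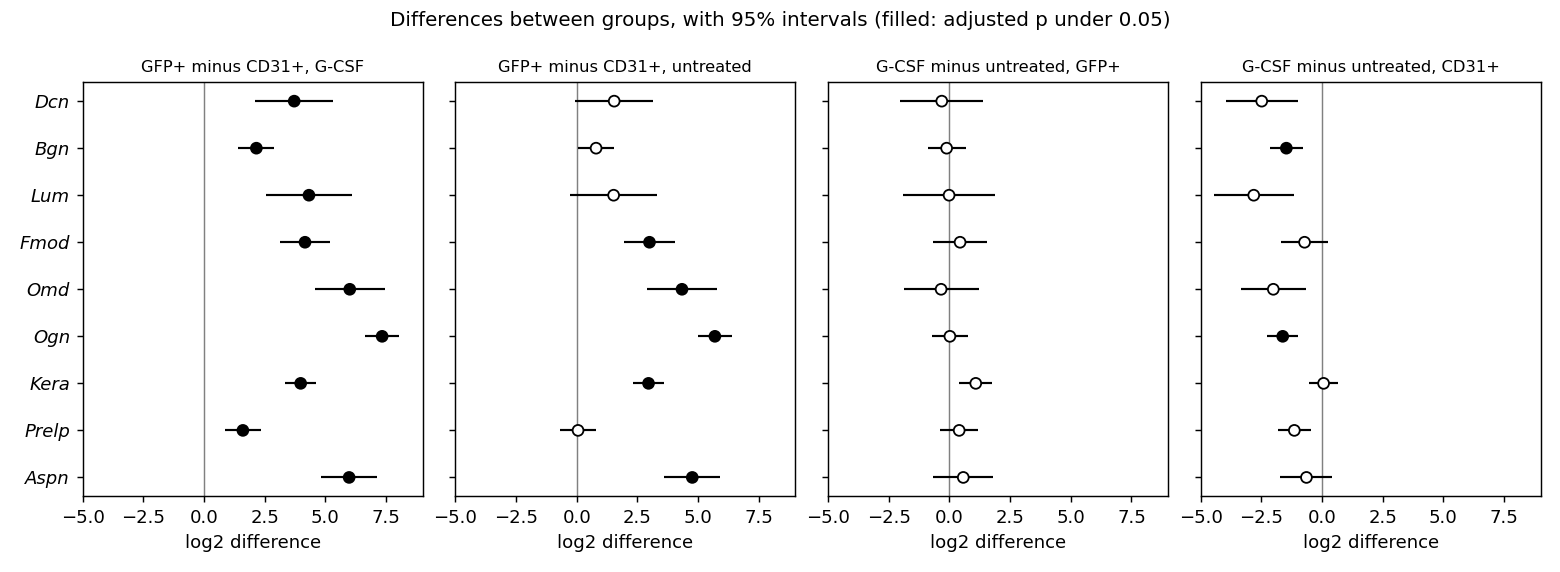
Differences between groups for the 9 genes, as log2 difference on the horizontal axis with 95% intervals from limma. Filled points are called (adjusted p under 0.05). After G-CSF all 9 genes were called higher in GFP+ than in CD31+ cells, in untreated mice 5 were, and within CD31+ cells Bgn and Ogn were called lower after G-CSF.

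In G-CSF-treated mice all 9 genes were higher in GFP+ osteoblasts than in CD31+ cells, where 17.5% of all genes tested were called higher, and the groups were apart for all 9, as they were in that direction for 21.4% of all genes. Without Kera, which passed the filter through its GFP+ arrays, the count was 8 of 8. The median difference was 4.16 on the log2 scale, against 0.02 for all genes. Ogn again had the widest difference, with 7436, 21565 and 15569.7 in G-CSF GFP+ arrays, against 102, 67.1, 47.2 and 65.0 in G-CSF CD31+ arrays. That is 7.34 ± 0.32, or 161.5-fold (adjusted p = 4.2e-09, limma). Omd differed by 6.00 ± 0.68 (64.1-fold) and Aspn by 5.98 ± 0.54 (63.0-fold). The smallest difference was that of Prelp, with 1263, 3407 and 3787 in G-CSF GFP+ arrays, against 758, 629.5, 1058 and 922 in G-CSF CD31+ arrays. It was 1.60 ± 0.35, or 3.03-fold (adjusted p = 0.00238). The lowest GFP+ array of G-CSF-treated mice was replicate 1 for all 9 genes, and that array also had the lowest 3 prime to 5 prime ratio of GAPDH, at 5.88. Leaving out any single array left 8 or 9 genes called. The 8 came from fits in which Kera did not pass the filter and was not tested.

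The G-CSF and the untreated comparison use different arrays, and whether the gap between the sorts differed with treatment was tested directly. The difference of the G-CSF changes, GFP+ minus CD31+, was positive for all 9 genes, from 1.02 (Kera) to 2.80 (Lum), but 0 of the 9 and 0 of 13453 genes were called by limma (0% of genes tested), with 622 genes at an unadjusted p under 0.05. Without untreated GFP+ replicate 2, 18 genes were called higher and 3 lower, and the members called remained at 0. The smallest adjusted p among the 9 was 0.624, for Ogn, with a difference of 1.64 ± 0.46. By its second, dimmer probe set, Dcn had the opposite sign, at -0.19 ± 0.60. That probe set lay under 39.0, the level of the dim filter, on every G-CSF CD31+ array, so the constant added before the log compresses its change there. With 0 calls in the direct test, the calls of 9 genes after G-CSF and 5 without it are not shown to differ.

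Within GFP+ osteoblasts, G-CSF left 0 of the 9 genes called, where 0.186% of all genes tested were called higher and 0.0446% lower, and 1191 of 13453 genes had an unadjusted p under 0.05. Without untreated GFP+ replicate 2, the array highest in neutrophil markers, 425 genes were called higher and 47 lower, against 25 and 6 with it, and the members called remained at 0. The untreated GFP+ arrays left had neutrophil marker means of 11.95 and 11.55, under the 13.74 to 14.36 of the G-CSF GFP+ arrays. The part of neutrophil RNA in those calls was not tested. In the main fit, changes of the members ran from -0.34 (Omd) to 1.09 (Kera), with a median of 0.02 against -0.04 for all genes. Kera had 272.5, 308 and 366 in G-CSF GFP+ arrays, against 176.9, 159 and 94.1 in untreated GFP+ arrays. It was the only member whose groups were apart, all G-CSF arrays being higher, as 3.61% of all genes were. Its change was 1.09 ± 0.32, or 2.12-fold, with an interval from 0.40 to 1.77 and an adjusted p of 0.257 (limma).

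The other 8 overlapped between G-CSF and untreated GFP+ arrays. Aspn had 9619, 13504 and 25965 in G-CSF arrays, against 8696, 7775 and 15122 in untreated ones, a change of 0.57 with an interval from -0.67 to 1.81. Fmod had 27696, 45289 and 54512 in G-CSF arrays, against 24211, 29347 and 38449 in untreated ones, a change of 0.44 with an interval from -0.66 to 1.55. Both genes were higher in the G-CSF array of all 3 same-numbered pairs, but the share of all genes that were so was not counted. Dcn had 32799, 42639 and 48768 in G-CSF arrays, and Bgn had 32432, 37714 and 40196. Their changes against the untreated values above were -0.31 for Dcn (-2.03 to 1.40) and -0.11 for Bgn (-0.90 to 0.67). Lum had 22683.5, 34906 and 34792 in G-CSF arrays, with a change of -0.01 (-1.92 to 1.90). For Omd, the G-CSF values were 3436, 11282 and 14003, replicate 1 being far under the other 2, and the change was -0.34 (-1.89 to 1.21). Ogn changed by 0.02 (-0.72 to 0.76) and Prelp by 0.40 (-0.38 to 1.19). The intervals are wide, and the lack of a call does not show that these genes did not change.

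Within CD31+ cells, 2 of the 9 genes, Ogn and Bgn, were lower after G-CSF and 0 were higher, where 1.14% of all genes tested were called lower and 0.453% higher. These shares, 154 and 61 genes, depended on single arrays: 34 were lower and 23 higher without G-CSF CD31+ replicate 2, 80 and 38 without replicate 3, and 16 and 16, 17 and 15, and 15 and 15 without untreated CD31+ replicates 1, 3 and 4, but 325 and 68 without untreated CD31+ replicate 2 and 364 and 190 without untreated GFP+ replicate 2. Ogn had 102, 67.1, 47.2 and 65.0 in G-CSF CD31+ arrays, against 354, 193.5, 267 and 188 in untreated CD31+ arrays. Every G-CSF array was under every untreated array. The change was -1.62 ± 0.30, or 3.08-fold lower (adjusted p = 0.0195, limma). A second, dimmer Ogn probe set gave -0.66 ± 0.32 (adjusted p = 0.454 where all probe sets were tested singly). It had 41.0, 37.6, 11.2 and 33.5 in G-CSF CD31+ arrays, near or under the dim filter level of 39.0. Bgn had 11832, 4036, 9096.5 and 10454 in G-CSF CD31+ arrays, against 29990.4, 13749, 22939 and 28420.5 in untreated CD31+ arrays. Here too the groups were apart, and the change was -1.47 ± 0.32, or 2.77-fold lower (adjusted p = 0.038). All 3 Bgn probe sets were called where probe sets were tested singly, with changes from -1.56 to -1.43.

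Both calls were near the threshold. The Ogn call was lost without G-CSF CD31+ replicate 2 (adjusted p = 0.0585) and without untreated CD31+ replicate 1 (0.0854), 3 (0.0745) or 4 (0.0501), with changes from -1.73 to -1.45. The Bgn call was lost without G-CSF CD31+ replicate 2 (0.0799) or 3 (0.0718), without untreated CD31+ replicate 1 (0.13), 3 (0.108) or 4 (0.118), and without G-CSF GFP+ replicate 2 (0.0529) or 3 (0.0541), with changes from -1.52 to -1.13. Averaging a gene's probe sets also ended the Ogn call (-1.14, adjusted p = 0.0642), and median centring the Bgn call (-1.29, adjusted p = 0.0607). The Bgn call was lost too with GFP+ replicates 2 and 3 alone, a setting added after seeing the data (adjusted p = 0.0535, limma). With arrays of the same replicate number taken as pairs within each cell type, limma called 5 of the 9 lower: Bgn (adjusted p = 0.00152), Lum (0.00434), Ogn (0.00903), Dcn (0.0101) and Omd (0.0102). The same fit called 521 of all genes lower and 139 higher, against 154 and 61 without the pairs. For the difference between the cell types, the pairs gave no call among the members, the smallest adjusted p being 0.108 (Bgn).

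Lum and Dcn had the largest changes in CD31+ cells and the widest spread. Lum had 5157, 171, 1395 and 3802 in G-CSF CD31+ arrays, against 19738, 4004, 14017 and 11402 in untreated ones. Dcn had 10241, 453, 2545 and 7615, against 26717, 9061, 21797.5 and 17372. In both genes G-CSF replicate 2 was lowest of all 8 arrays by a wide margin, and untreated replicate 2 was lowest of its group, so that the groups overlapped in part. The changes were -2.81 ± 0.78 for Lum (7.03-fold, adjusted p = 0.0855) and -2.48 ± 0.70 for Dcn (5.59-fold, adjusted p = 0.0882), neither called in the fit of all arrays without pairs. The second, dimmer Dcn probe set gave -0.70 ± 0.39 (adjusted p = 0.57 where all probe sets were tested singly). It had 4.1, 18.0, 10.2 and 34.9 in G-CSF CD31+ arrays, all under the dim filter level of 39.0, where changes are understated. What follows is again by the main probe sets. Both were called lower with array weights (adjusted p = 0.0396 for Lum and 0.0486 for Dcn) and without G-CSF CD31+ replicate 1 (0.0438 and 0.0378), and Lum also without untreated CD31+ replicate 2 (0.0427). Array weights raised the calls over all genes to 685 lower and 344 higher, against 154 and 61 in the main fit. Omd followed the same order of arrays, with 324, 35.9, 57.6 and 188 after G-CSF, against 1001, 155, 728 and 516 untreated, and changed by -2.01 ± 0.63 (adjusted p = 0.129). It was called with array weights (0.0475) and without untreated CD31+ replicate 2 (0.0358).

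CD31+ groups were apart in the lower direction for 3 of the 9 genes, Prelp beside Bgn and Ogn, as they were for 5.62% of all genes. Prelp had 758, 629.5, 1058 and 922 in G-CSF arrays, against 1415, 1486, 2632 and 2077.5 in untreated ones, and changed by -1.14 ± 0.32 (2.21-fold, adjusted p = 0.0882). It was called lower with array weights (0.00855), with the CD31+ groups fitted alone (0.0275) and without G-CSF GFP+ replicate 1 (0.0306). The same held with GFP+ replicates 2 and 3 alone (0.0298), a setting added after seeing the data. Of all genes, array weights called 685 lower and 344 higher and the CD31+ groups alone 222 and 240, against 154 and 61 in the main fit. Fmod had 2815, 1390.1, 1297 and 5251 in G-CSF arrays, against 2955, 2206, 3553 and 8577 in untreated ones, with a change of -0.72 (interval -1.68 to 0.24). Aspn had 676, 284, 63.0 and 181, against 339.8, 484, 266 and 365. Its G-CSF arrays lay both above and under the untreated ones, and the change was -0.64 (-1.71 to 0.43). Kera stayed under the level of the dim filter on all 8 arrays, at 0.8, 14, 4.7 and 2.1 after G-CSF and 2.4, 2.5, 5.9 and 5.2 untreated. In all 4 same-numbered pairs of CD31+ arrays the G-CSF array was lower for 7 of the 9 genes, and in 3 of 4 for Aspn. Kera was too dim for its pairs to be read. The share of all genes lower in all 4 pairs was not counted, so the count is a description only.

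**Figure D3:**
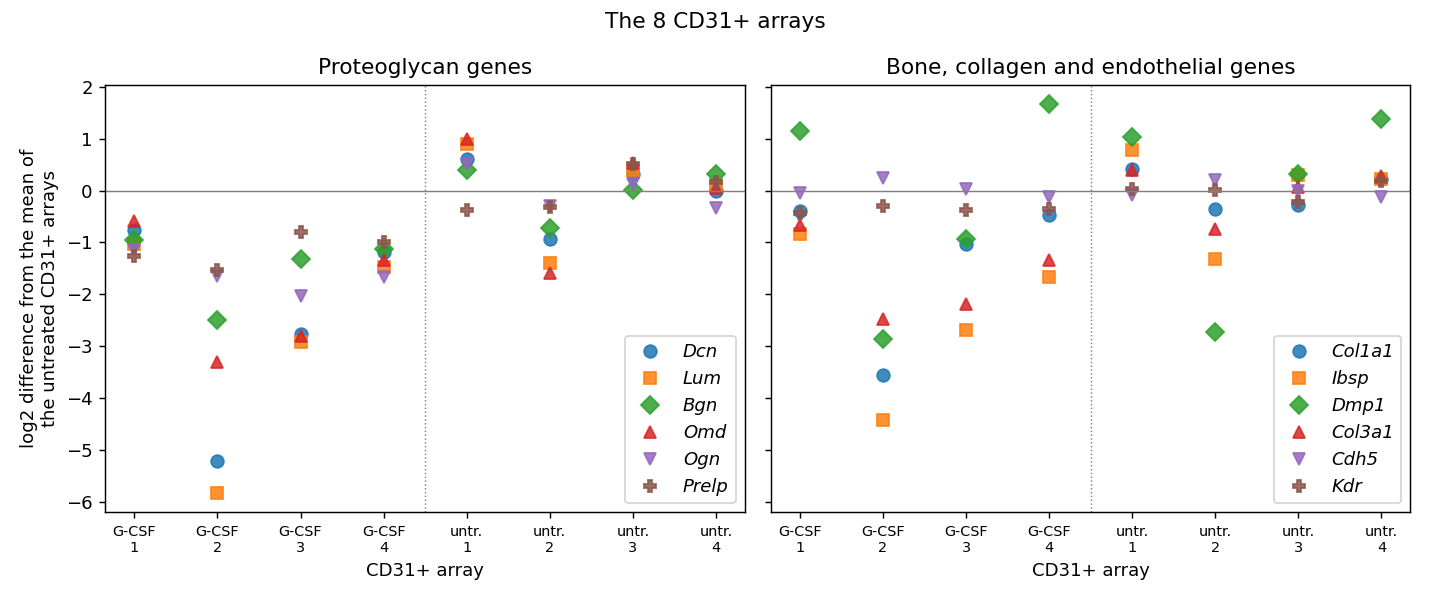
The 8 CD31+ arrays 1 by 1, as log2 difference from the mean of the 4 untreated CD31+ arrays (vertical axis), for 6 of the proteoglycan genes on the left and for 4 bone and collagen genes and 2 endothelial genes on the right. G-CSF replicate 2 is lowest for Dcn and Lum and also for Col1a1 and Ibsp, while Cdh5 and Kdr stay close to 0 on all arrays.

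Most osteoblast markers were lowest in replicate 2 of both CD31+ groups, as were Dcn, Lum, Bgn and Omd. The other members were not. Ogn was lowest in G-CSF replicate 3 and untreated replicate 4, and Aspn in replicate 3 of both groups. The summed intensity of the 5 osteoblast markers ran from 5168 to 50383 in G-CSF CD31+ arrays, against 39155 to 86226 in untreated CD31+ arrays, and none of the 5 was at 0. Col1a1, whose promoter fragment drives the GFP of the sort, had 31126, 3475, 20071 and 29724 in G-CSF CD31+ arrays, against 54712, 32165, 33734 and 48248 in untreated ones, and replicate 2 was lowest in both groups. Ibsp, the gene of bone sialoprotein, had 5395, 439, 1499 and 3047, against 16595, 3901, 11996 and 11371. Alpl, the phosphatase of mineralising cells, was the 1 marker of the 5 called (-1.59 ± 0.33, adjusted p = 0.0321, limma). Dmp1, an osteocyte gene, did not follow, with 11033, 672, 2609.6 and 15831 in G-CSF CD31+ arrays, against 10279.6, 740.4, 6204 and 12974 in untreated ones (-0.25, adjusted p = 0.968), although replicate 2 was again lowest in both groups. The 8 endothelial markers had similar means in both groups, from 12.04 to 12.47 after G-CSF and from 12.01 to 12.59 untreated. With the Col1a1 level of each array as a covariate, chosen after seeing the data, 0 members were called in CD31+ cells. The changes were -1.52 for Ogn (adjusted p = 0.201), -0.94 for Lum, -0.78 for Dcn and -0.75 for Bgn (adjusted p = 0.303). Without the 2 arrays that stood apart, G-CSF replicate 2 and untreated replicate 1, also chosen after seeing the data, 0 were called, with -1.44 for Ogn and -0.997 for Bgn. Of all genes, the covariate fit called 10 lower and 16 higher, and the fit without the 2 arrays 9 and 16. The main fit called 154 and 61, so the loss of calls was not particular to the members. Markers of several other cell types were also lower after G-CSF in CD31+ arrays by their median change. It was -1.90 for the 5 B lineage markers, whose mean ran from 7.00 to 8.70 after G-CSF and from 8.67 to 10.50 untreated, -1.62 for the 5 skeletal muscle markers (7.22 to 8.95, and 7.94 to 13.7) and -0.84 for the 5 cartilage markers (6.84 to 10.2, and 7.87 to 10.99), with 0 called in these 3 lists. Of the reticular stroma and adipocyte markers, 5 of 6 on the array, 1 was called, Adipoq, the adiponectin gene (-3.43 ± 0.24, 10.8-fold lower, adjusted p = 3.34e-06). The part of these cells in the proteoglycan changes was not tested.

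The order of the 4 groups was alike for most members. GFP+ groups were highest by their means for all 9 genes, although those of Prelp overlapped with untreated CD31+ cells, and the G-CSF and untreated GFP+ groups overlapped for all but Kera. Untreated CD31+ cells came next and G-CSF CD31+ cells last for 8 of the 9, with groups apart for Bgn, Ogn and Prelp, while Kera was under the dim filter in both CD31+ groups. The other 11 probe sets of the members gave the same direction as the main one in both comparisons of the sorts. Among the members, the closest patterns over the 14 arrays, after each gene was centred on its own mean, were those of the neighbours Dcn and Lum, with a root mean square difference of 0.28 on the log2 scale. Bgn and Prelp, on different chromosomes, came next (0.65), then Fmod and Kera (0.82). Aspn and Ogn differed by 0.94 and Omd and Ogn by 0.96, and the pair most unlike was Ogn and Prelp, at 2.86.

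Outside the family, the genes most like Dcn over the same 14 arrays were Wnt4 (0.21), Mmp2 (0.27) and Fap (0.36). Mmp2, a gelatinase, and Wnt4 were also closest to Lum (0.33 and 0.38), with Ptgis (0.46). Bgn was closest to Cercam (0.23), Tiam2 (0.25) and Gpsm2 (0.26). Fmod lay nearest to Dkk3 (0.40), Fndc1 (0.44) and Tmem30b (0.45). Omd was nearest to Zfhx4 (0.63), Postn (0.64), the periosteal matrix gene, and Tnn (0.67). Ogn had Itgbl1 (0.73), Col8a2 (0.73) and Abi3bp (0.76), and Aspn had Col8a2 (0.56), Dner (0.73) and Itgbl1 (0.74). Kera was nearest to Cilp2 (0.50), Gm13306 (0.51) and Apod (0.56), and Prelp to Dact3 (0.35), Baalc (0.36) and Rnf225 (0.39). These are likenesses over 14 arrays of 4 groups that share their sorts and scaling.

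Genes of related function were read from 7 lists, beginning with the collagens that the proteoglycans bind. Beside the counts stand the shares of all genes tested, 13.6% higher and 12.8% lower in the untreated comparison, and 17.5% and 14.4% after G-CSF. A count near them, such as 1 lower of 14 growth factors and receptors or 3 lower of 18 other proteoglycans, is not a result about its list. Of 13 genes for fibril-forming, fibril-associated and type VI collagens, 7 were higher in untreated GFP+ than in untreated CD31+ cells and 0 lower, and 12 and 0 after G-CSF. Without the 3 genes of type VI, a collagen of beaded filaments, 4 of 10 were higher in untreated cells and 9 of 10 after G-CSF. In untreated cells Col12a1, a fibril-associated collagen, was 11.5-fold higher (log2 change 3.52 ± 0.47, adjusted p = 5.9e-05, limma), Col6a1 5.80-fold, Col6a2 5.32-fold and Col3a1 3.61-fold. Within CD31+ cells 1 of 13 was called lower after G-CSF, Col3a1 (-1.67 ± 0.34, adjusted p = 0.0296), and the median change of the list was -1.25, against -0.05 for all genes and -1.47 for the 9 proteoglycan genes. The Col3a1 call was lost without G-CSF CD31+ replicate 2 (0.0808) or 3 (0.0784) and without untreated CD31+ replicate 1 (0.109), 3 (0.1) or 4 (0.0972), and with median centring (0.0502).

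The enzymes that process procollagen and cleave proteoglycans were higher in the GFP+ sort in part, 4 of 10 in untreated cells and 6 of 10 after G-CSF, with 0 lower in either. In untreated cells Mmp13, the collagenase of bone and cartilage, was 15.7-fold higher (3.97 ± 0.58, adjusted p = 0.000141, limma), Mmp14 4.58-fold, the secreted protease Htra1 4.27-fold and Bmp1, which trims procollagen and several of these proteoglycans, 3.65-fold. After G-CSF, Mmp2 was 14.4-fold higher in GFP+ cells (3.84 ± 0.72, adjusted p = 0.000758).

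The enzymes that build the sugar chains were called in both directions. Of 19 genes for chondroitin and dermatan sulfate chains, 5 were higher and 4 lower in untreated GFP+ than in untreated CD31+ cells, and 11 and 2 after G-CSF. The sulfotransferase gene Chst7 was lower by the widest margin of the list (-3.90 ± 0.30, adjusted p = 3.59e-07, limma) and Csgalnact1, which starts the chain, 5.12-fold lower, whereas its paralogue Csgalnact2 was 2.23-fold higher. After G-CSF, Dse, the epimerase that turns chondroitin into dermatan sulfate, was 6.92-fold higher in GFP+ cells and Chpf, a chain-lengthening factor, 5.59-fold higher. Chpf was also the 1 gene of this list called lower after G-CSF in CD31+ cells (-1.68 ± 0.33, adjusted p = 0.0222), a call lost without G-CSF CD31+ replicate 2 (0.0585) or 3 (0.0568) and without untreated CD31+ replicate 1 (0.0876), 3 (0.0894) or 4 (0.0547).

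The list for keratan sulfate also held Tpst1 and Tpst2, which sulfate tyrosines of proteins such as fibromodulin and do not build the chain. Of its 9 genes, 1 was higher and 6 were lower in untreated GFP+ than in untreated CD31+ cells, and 1 and 3 after G-CSF. Without the 2 Tpst genes, 1 of 7 was higher and 4 lower in untreated cells, and 1 and 2 after G-CSF. The higher one was the sulfotransferase gene Chst5 (1.71 ± 0.35, 3.26-fold, adjusted p = 0.00213, limma). Among the lower ones were B4galt4, which adds galactose to the growing chain (-1.51 ± 0.30, adjusted p = 0.00179), and the sulfotransferase genes Chst1 (-1.40, adjusted p = 0.0398) and Chst2 (-1.32, adjusted p = 0.0405). The last 2 calls were lost in at least 1 fit that left out a single array, with adjusted p up to 0.219 for Chst1 and 0.144 for Chst2.

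**Figure D4:**
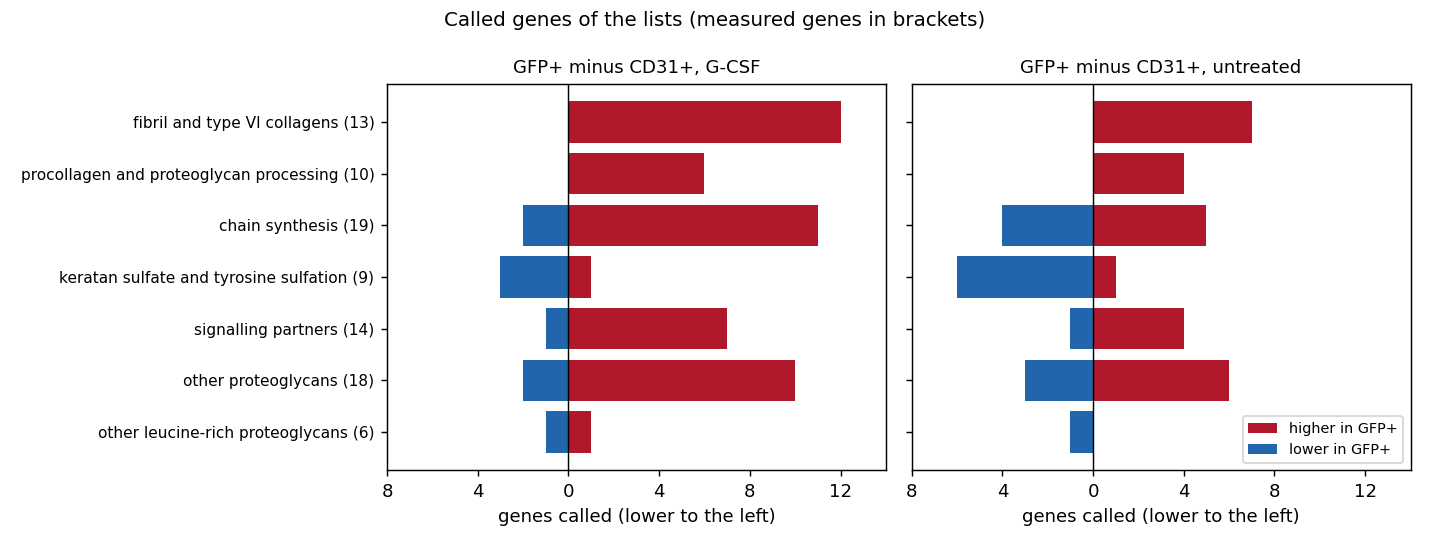
Number of genes called in each of the 7 lists, GFP+ minus CD31+, after G-CSF (left panel) and untreated (right panel). Bars to the right count genes higher in GFP+ cells and bars to the left genes lower, with the number measured in brackets. Collagens reach 12 of 13 after G-CSF, and the keratan sulfate and tyrosine sulfation list has more genes lower than higher in both panels.

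Growth factors and receptors that these proteoglycans bind were higher in untreated GFP+ cells for 4 of 14 genes and lower for 1, and after G-CSF for 7 and 1. In untreated cells Tgfb3 was 4.54-fold higher (2.18 ± 0.29, adjusted p = 5.33e-05, limma) and Tgfb2 3.17-fold, 2 ligands that decorin and biglycan can bind, and Lrp1, an endocytic receptor of decorin, was 3.66-fold higher. The lower one was Kdr, the VEGF receptor of endothelium that decorin can also bind, at 17.7-fold. Of 18 other proteoglycan genes, 6 were higher and 3 lower in untreated cells, and 10 and 2 after G-CSF. Vcan, a large chondroitin sulfate proteoglycan, was 25.8-fold higher in untreated GFP+ cells (4.69 ± 0.55, adjusted p = 1.82e-05), and the syndecan gene Sdc2 7.08-fold. Sdc2 was the 1 gene of this list called lower after G-CSF in CD31+ cells (-1.26 ± 0.28, adjusted p = 0.0401). That call was lost in 7 of the fits that left out a single array, without G-CSF CD31+ replicate 2 (0.116) or 3 (0.105), untreated CD31+ replicate 1 (0.124), 3 (0.146) or 4 (0.118), or G-CSF GFP+ replicate 2 (0.0559) or 3 (0.0546). It was also lost with a pseudocount of 64 (0.0503), quantile normalisation (0.0809), median centring (0.0766), probe sets tested singly (0.0502) and a prior without trend (0.054).

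Leucine-rich proteoglycans outside the 9 were read last. Of 6 measured among 9 listed, 0 were higher and 1 was lower in untreated GFP+ cells, and 1 and 1 after G-CSF. Ecm2, whose gene lies next to Aspn on chromosome 13 with no protein-coding gene between them, was 3.12-fold lower in untreated GFP+ than in untreated CD31+ cells (-1.64 ± 0.32, adjusted p = 0.00134, limma) and 3.39-fold lower after G-CSF (-1.76 ± 0.32, adjusted p = 0.000596). Aspn, Omd and Ogn of the same run of genes were higher by 20.2-fold to 51.7-fold in the untreated comparison. Epyc, the neighbour of Kera on chromosome 10, differed by -1.01 ± 0.70 and was not called (adjusted p = 0.318). Chad, a collagen-binding protein of cartilage and bone, was the one higher after G-CSF (3.46 ± 1.12, adjusted p = 0.0281), a call lost without G-CSF GFP+ replicate 2 (0.0855) or 3 (0.11) or G-CSF CD31+ replicate 2 (0.0865) or 3 (0.0571). In GFP+ cells G-CSF left 0 genes called in all 7 lists. With same-numbered arrays as pairs, the lower calls after G-CSF in CD31+ cells were 8 of 13 collagens, 4 of 19 chain synthesis genes, 3 of 10 processing genes, 2 of 14 signalling partners and 3 of 18 other proteoglycans, and in GFP+ cells 1 collagen and 1 other proteoglycan were called lower. Of all 13453 genes, that fit called 521 lower in CD31+ cells and 19 lower in GFP+ cells.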

How the data were processed

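The deposited table gives a linear intensity for each probe set on each array. The authors made them with Affymetrix Expression Console 1.1, per the submitters' processing notes, from biotinylated cRNA of 100 ng of total RNA, per the labels' protocols. The algorithm behind the summary is not given in the sources used here. Deposited values had been scaled, since the trimmed mean was 500.0 on all 14 arrays, and they were not normalised again. Median log2 intensity ran from 6.57 to 7.13 and correlations between arrays from 0.740 to 0.973. GFP+ replicates 2 and 3 were printed with more decimals than the other arrays, and this was tried as a batch term.

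Of 45101 probe sets, 34945 had 1 gene symbol in the platform annotation, 932 had several, 9160 had none and 64 were controls. Probe sets with a mean log2(intensity + 16) under 5.78 were dropped as dim, and the brightest remaining probe set stood for its gene, which left 13453 genes, all 9 members among them. Group means of the 4 groups were fitted to all arrays with limma 3.58.1 (R 4.3.3, eBayes with trend). Tests were 2-sided, p-values were adjusted by Benjamini and Hochberg over 13453 genes, and the script was tested on simulated data.

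The members and the gene lists were chosen with earlier results of these data known, so patterns in them are not independent support. Named genes were all 9 members, up to 4 called genes of each list by size of change, and the 3 genes nearest to each member by root mean square difference. Epyc, Col1a1 and Ibsp were named beside them. The groups, tests and alternatives are listed with their effects under the closing heading, and 3 alternatives were added after seeing the data.

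Replicate numbers come from the titles. Deviations of same-numbered arrays from their group means correlated by 0.223 to 0.315 in GFP+ and by 0.102 to 0.377 in CD31+ cells. Every pair passed 0.1, so the numbers were used as pairs within each cell type as an alternative. Array 4 of the G-CSF CD31+ group correlated better with another number (0.178).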

Additional observations from a re-analysis of the deposited data

How the results depend on the processing

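The main limits are groups of 3 and 4 arrays, a shared estimate of spread that G-CSF CD31+ replicate 2 widens, and a scaling whose effect on dim genes is not recorded. Of 34 or 35 alternatives per comparison, the count of members called kept within 1.5 times of the main one in 34 of 34 for the sorts after G-CSF, in 35 of 35 for G-CSF in GFP+ cells (0 called), in 34 of 34 for the difference between cell types (0 called) and in 31 of 34 for the untreated sorts. For the untreated sorts the count was 8, not 5, without G-CSF CD31+ replicate 2 and untreated CD31+ replicate 1 together and with Col1a1 as a covariate, and 4 to 8 when single arrays were left out, 4 where Kera was not tested. After G-CSF it was 8 to 9 when single arrays were left out. For G-CSF in CD31+ cells it held in 17 of 35. The count of 2 became 1 with median centring, with a gene's probe sets averaged and without untreated GFP+ replicate 2 and untreated CD31+ replicate 1. It became 5 with a replicate block within each cell type, 4 with a replicate block shared by both and 6 with array weights. Of all genes, these fits called 521, 417 and 685 lower and 139, 89 and 344 higher, against 154 and 61 in the main fit. The count of members became 0 at an adjusted p under 0.01, without G-CSF CD31+ replicate 2 and untreated CD31+ replicate 1, and with the Col1a1 covariate. Of all genes, these settings called 14, 9 and 10 lower and 13, 16 and 16 higher. When single arrays were left out, the count of members ran from 0 to 4. The replicate block within each cell type changed no other call of a member. The causes were not tested. Median centring moved the median of all genes to -0.23 in the untreated sorts (1239 higher and 2575 lower calls, against 1831 and 1722), to -0.36 in the sorts after G-CSF (1452 and 3974, against 2351 and 1936) and to 0.13 in CD31+ cells (83 and 56, against 61 and 154).

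Of single-gene values, 26 changed sign, none of them called. Prelp in the untreated sorts (0.06) became -0.175 with median centring, -0.126 with array weights, -0.273 with the decimals term, -0.116 with GFP+ replicates 2 and 3 alone, -0.071 without G-CSF CD31+ replicate 2 and untreated CD31+ replicate 1, and -0.065 without untreated GFP+ replicate 2 and untreated CD31+ replicate 1. It ran from -0.116 to 0.225 when single arrays were left out. In GFP+ cells after G-CSF, Lum (-0.01) became 0.011 with quantile normalisation, 0.014 with median centring and 0.166 with replicates 2 and 3 alone, and ran from -0.133 to 0.194 when single arrays were left out. Ogn (0.02) became -0.068 with quantile normalisation and -0.040 without untreated GFP+ replicate 2 and untreated CD31+ replicate 1, and ran from -0.312 to 0.455. Omd (-0.34) became 0.167 with replicates 2 and 3 alone and ran from -0.730 to 0.281, and Bgn (-0.11) ran from -0.306 to 0.094. Kera in CD31+ cells (0.06) became -0.003 with array weights, -0.149 without G-CSF CD31+ replicate 2 and untreated CD31+ replicate 1, and -0.280 with the Col1a1 covariate, and ran from -0.111 to 0.168.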
